A study of Danio rerio with 15 samples.

Results

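These data were examined for transcripts whose abundance moved in opposite directions at the lower and the higher concentration of tefluthrin, that is, above untreated larvae at 60 nM and under them at 2.3 µM, or the reverse. Estimated counts were put on a common scale by median-of-ratios factors over all 15 libraries, and such values are called scaled counts here. The shift of a transcript is the log2 of its group mean plus 5, minus the same value in control. A transcript was taken when its control mean was at most 10000 scaled counts, its highest group mean was at least 50, both shifts were at least 0.3 in size with opposite signs, and no control library overlapped with the libraries of either tefluthrin group. Of 64995 transcripts in the files, 23506 lay within the level limits and 256 met every condition. The 200 with the largest smaller shift, meaning the smaller of the 2 shifts in size, are described here. They comprised 141 transcripts that were higher at 60 nM and lower at 2.3 µM, and 59 that were lower at 60 nM and higher at 2.3 µM.

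RNA came from pooled whole larvae of Danio rerio, strain NHGRI-1, labelled WT, at 72 h post fertilisation, and was sequenced after poly(A) selection. The 5 groups, with 3 libraries each, were untreated control, tefluthrin at 60 nM, tefluthrin at 2.3 µM, acetochlor at 780 nM and acetochlor at 7.8 µM. Exposed larvae were treated from 48 h after fertilisation onward. For the higher tefluthrin group the column headers give nanomolar where the titles, treatment labels and design text give micromolar, and the labels were followed.

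Tefluthrin is a pyrethroid insecticide. Pyrethroids keep voltage-gated sodium channels of nerve and muscle open for longer after each impulse, and fish larvae respond to them with altered movement. Acetochlor is a chloroacetanilide herbicide, which in plants blocks the synthesis of very long chain fatty acids. A response that changes direction between a low and a high concentration is known in toxicology as a non-monotonic response. Each identifier here is an Ensembl transcript, so that several members can be splice forms of 1 gene. Where transcripts share sequence, an estimator divides the reads between them, and a gain in 1 form can then go with a loss in another. No gene is given beside a transcript in the files, and none of the identifiers was found in the gene tables used for names, so that the members have no gene name, role, tissue or position here. The labelled tissue could not be checked against its markers for the same reason. In pooled whole larvae, fewer cells that make a transcript and less of it per cell cannot be told apart.

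Library totals ran from 17354405 to 25191374 estimated counts. A count of 0 allows up to 3 counts, which came to 2.35 to 3.61 scaled counts depending on the library and covers counting error only. Replicates within a group differed by more than sampling noise, with a chi-square of 2.98 to 22.6 per degree of freedom over the 15 pairs. The pairs of acetochlor 780 nM had the largest values, 9.36, 11.06 and 22.6, and all other pairs were at or under 7.57. The labels do not say whether the 3 pools of a group came from separate clutches or exposures, and they name no batch, so p-values measure the spread between these libraries.

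Among the 23506 transcripts within the level limits, 7879 (33.52%) had both shifts of at least 0.3 in size, and 842 of these had opposite signs. With the requirement that control libraries not overlap with either group, 256 were left. Both shifts are read against the same 3 control libraries, which by itself favours shifts of the same sign, so no share of opposite against same-sign movement is drawn from these counts.

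**Figure D1:**
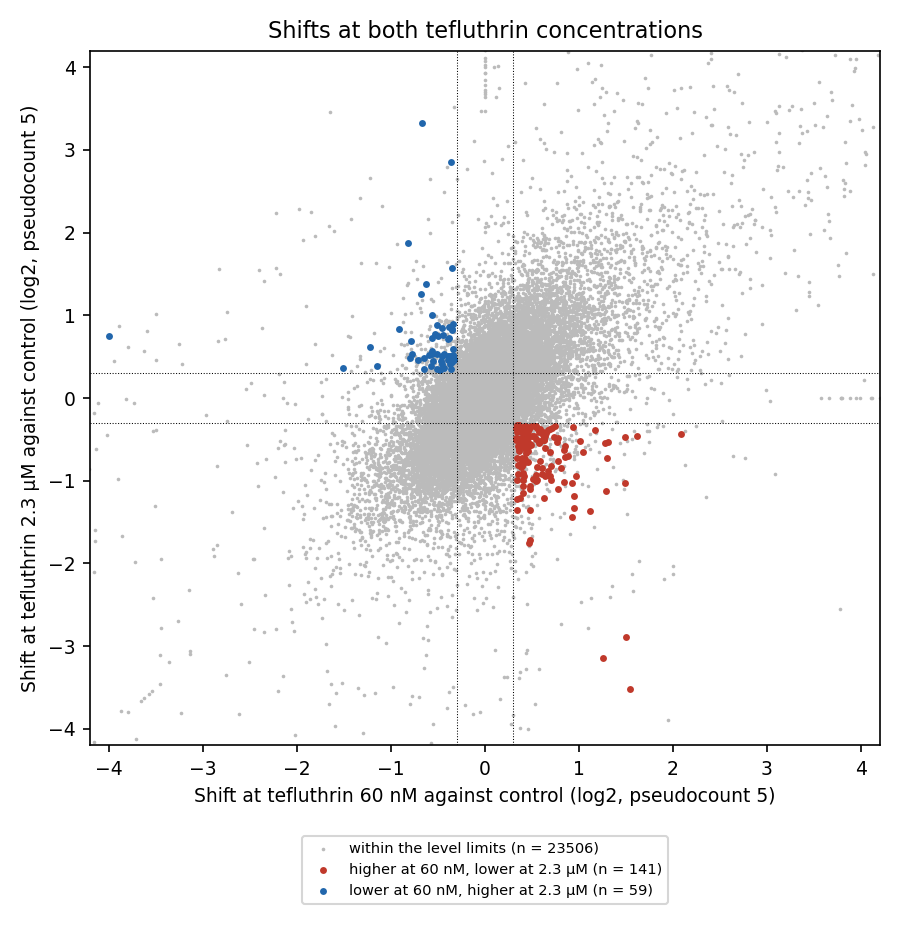
Each point is a transcript within the level limits, with its shift at tefluthrin 60 nM against control on the horizontal axis and its shift at 2.3 µM on the vertical axis (log2 of group mean scaled count plus 5); 122 points lie beyond the axes. The 141 red members lie in the lower right and the 59 blue members in the upper left, past the dotted lines at 0.3; both axes share the control libraries; grey points among the members overlap with control or rank after the 200.

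The sizes of the shifts were modest for most members. Among the 141 transcripts higher at 60 nM, the shift at 60 nM had a median of 0.5 and ran from 0.33 to 2.08, and the shift at 2.3 µM had a median of -0.58 and ran from -3.52 to -0.33. Among the 59 lower at 60 nM, the median was -0.46 at 60 nM, from -4.0 to -0.33, and 0.52 at 2.3 µM, from 0.33 to 3.32. These values chose the members and are a description only. The shift at 2.3 µM was the larger in size in 80 of the 141 and in 38 of the 59. Both shifts reached 1 in 6 of the 141 and in 0 of the 59, and both reached 0.5 in 46 and 18. The last member taken had a smaller shift of 0.3289, and the first left out had 0.3269.

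The division between the directions depended on the scaling. Of all 256 transcripts that met the conditions, 174 were higher at 60 nM and 82 lower. With library totals as the only scaling, 302 met them, 257 higher and 45 lower at 60 nM. The 200 largest were then 176 and 24, of which 148 were among the members described here. With TMM scaling, which trims extreme transcripts before libraries are compared, the counts were 179 and 76, and 192 members were shared. The excess of transcripts higher at 60 nM held under all 3 scalings, and its size did not. All 3 splits come from the libraries of the choice and are a description only.

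The members were not the most abundant transcripts. Their control means ran from 25 to 8100 scaled counts with a median of 155, against a median of 185 over all transcripts within the level limits. In 67 members the control mean was under 100, and in 11 it was at least 1000. The most abundant member, singled out after its values were seen, was at 8118, 8228 and 7948 scaled counts in the control libraries. It stood at 12493, 13359 and 13746 at tefluthrin 60 nM and at 4240, 4734 and 4756 at 2.3 µM. Its acetochlor libraries, between 7844 and 9484, lay around the controls, and its groups at the tefluthrin concentrations lay far outside them.

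An estimate that is not a whole number shows that reads were divided between transcripts, and one that is whole in every library gives no sign of such division. Of the 200 members, 54 (27.0%) had whole estimates in all 15 libraries (within 0.001), 36 of them higher and 18 lower at 60 nM, against 24.7% of transcripts within the level limits. Among the members the share was 34.3% (23 of 67) with a control mean under 100 and 26.3% (20 of 76) from 100 to under 300. It was 19.6% (9 of 46) from 300 to under 1000 and 18.2% (2 of 11) at 1000 or more. Over all transcripts within the level limits it was 20%, 26.2%, 27.3% and 27.7% in the same order. These differences were not tested. For the other 146 members, a change in how reads were divided between transcripts and a change in the level of the transcript could not be told apart. Whether reads were divided for the 54 members with whole estimates was not tested. Since no gene is given beside a transcript, the summed output of a gene is not known for any member, with whole or fractional estimates.

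Of the 4 transcripts named by identifier here, 3 have whole estimates. ENSDART00000102697.5 had the largest smaller shift of any member with whole estimates. Its control libraries stood at 59.3, 68.3 and 59.5 scaled counts, its 60 nM libraries at 167, 148 and 164, and its 2.3 µM libraries at 23.4, 30.1 and 24.0. All 60 nM libraries were far above and all 2.3 µM libraries far under every control library. The edgeR fit put the log2 fold change at 1.35 for 60 nM (SE 0.165) and at -1.28 for 2.3 µM (SE 0.174). At acetochlor 780 nM it stood at 38.7, 53.9 and 58.9, and at acetochlor 7.8 µM at 54.3, 54.8 and 49.3. Those values lay under all control libraries, and neither acetochlor group passed the test (edgeR adjusted p = 1 and 0.861).

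ENSDART00000109464.3, also with whole estimates, had the reverse pattern. Control libraries were at 62.8, 65.2 and 65.0 scaled counts, those at 60 nM at 28.0, 44.2 and 31.0, and those at 2.3 µM at 277, 231 and 242. The 60 nM libraries spread more widely for their level than those of control, with replicate II above the other two, and the 3 groups did not overlap. Fitted log2 fold changes were -0.91 for 60 nM (SE 0.192) and 1.95 for 2.3 µM (SE 0.187). With acetochlor it was at 69.4, 42.7 and 54.7 at 780 nM and at 60.5, 67.5 and 64.0 at 7.8 µM, the latter around the controls (log2 fold change -0.01, SE 0.186).

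**Figure D2:**
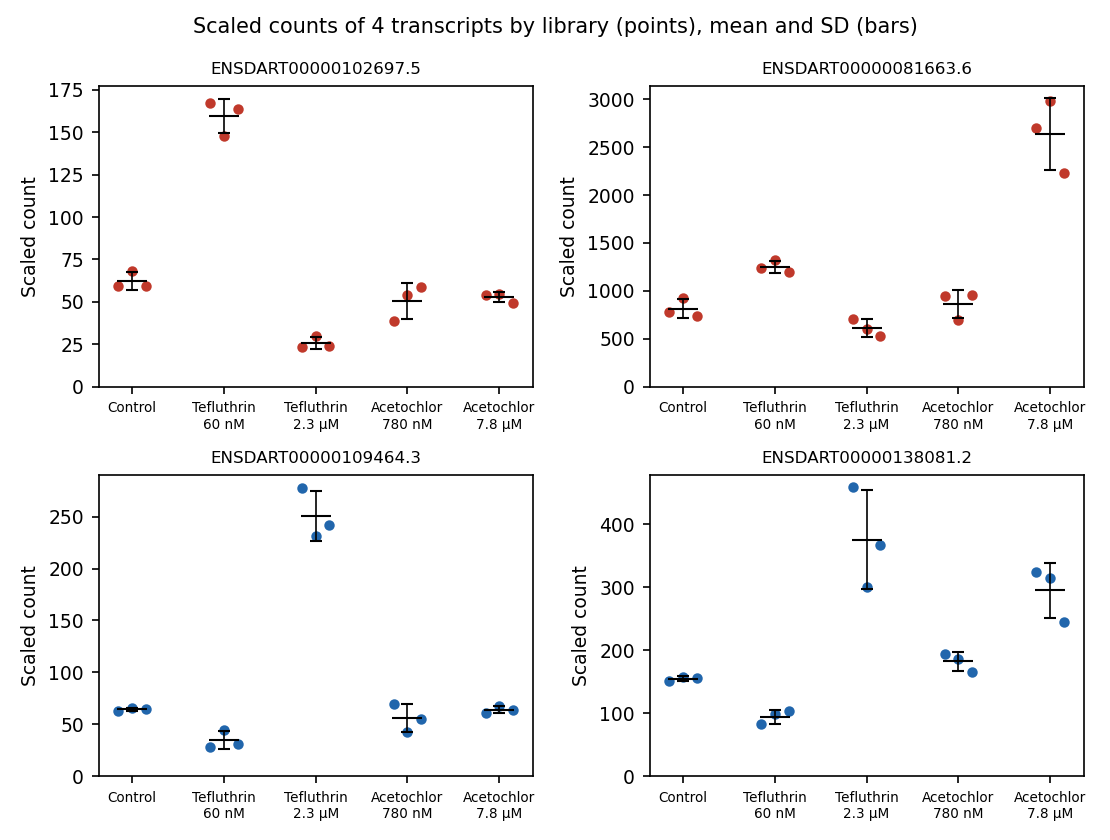
Scaled counts (vertical axis, from 0) of the 4 transcripts named by identifier in each library, by group (horizontal axis), with the mean and SD of 3 libraries in black; the 2 upper panels are higher at tefluthrin 60 nM (red) and the 2 lower panels lower (blue). In each panel the control libraries lie between the libraries of the tefluthrin groups, and in the right panels the acetochlor 7.8 µM libraries lie above the controls.

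Other members with whole estimates followed the same course at lower or higher levels. The one ranked 6 was at 40.7, 43.8 and 44.7 scaled counts in control, at 112, 134 and 145 at 60 nM and at 11.7, 28.9 and 14.9 at 2.3 µM. Its spread at 2.3 µM was wide for its level, though the groups stayed apart. The member ranked 23 was at 219, 222 and 241 in control, 537, 288 and 446 at 60 nM and 183, 126 and 106 at 2.3 µM, so that its 60 nM libraries spread more widely than those of the other groups. The reverse direction included the member ranked 26, with whole estimates, at 1025, 1034 and 741 in control, 449, 603 and 558 at 60 nM and 1682, 1439 and 1391 at 2.3 µM. The member ranked 35 moved mainly at the lower concentration, from 103, 92.7 and 80.7 in control to 30.1, 30.9 and 49.2 at 60 nM, against 147, 138 and 145 at 2.3 µM. By contrast, the member ranked 28, with fractional estimates, moved mainly at the higher one. It went from 124, 185 and 153 in control to 91.3, 120 and 73.9 at 60 nM and 1568, 1754 and 1439 at 2.3 µM.

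The highest ranks were held by transcripts that are listed at 0 in whole groups. The 3 members with the largest smaller shift all had fractional estimates and were at 0 in every library at tefluthrin 2.3 µM. The first of these stood at 40.2, 67.2 and 49.7 scaled counts in control and at 231, 189 and 67.2 at 60 nM. It was also at 0 in all libraries at acetochlor 780 nM and in replicates I and II at acetochlor 7.8 µM, but at 147 in replicate III. The estimate of this transcript thus differed between 0 and 147 within 1 group. Because its estimates are fractional, a change in how reads were divided and a change in its level could not be told apart. At 60 nM its lowest library, 67.2, lay only just above the highest control.

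In all, 7 of the 200 members (3.5%) were at 0 in some library, against 6.3% of transcripts within the level limits, and 4 were at 0 in every library of some group. Of the 7, 1 had whole estimates: the member ranked 151, singled out after its values were seen, was at 59.3, 62.2 and 72.1 scaled counts in control and at 58.1, 0 and 0 at 60 nM. It was also at 0 in replicates I and II at acetochlor 780 nM and at 74.9 in replicate III, and between 75.8 and 90.1 at tefluthrin 2.3 µM. Such a transcript met the conditions by a narrow gap in 1 library and a count of 0 in the others.

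The fit across all transcripts gave these counts for the 2 contrasts that chose the members, as a description. edgeR's quasi-likelihood test with Benjamini-Hochberg adjustment called 88 members at 60 nM (background 16.4% of 35865 transcripts tested) and 151 at 2.3 µM (background 29.8%), at an adjusted p-value under 0.05. In the opposite directions at both concentrations it called 77 members, 55 of them higher at 60 nM, where the background was 0.427%. Those 77 were 38.5% of the members and 50.3% of the 153 transcripts called in opposite directions. Of the others, 85 members were called at 1 of the concentrations and 38 at neither. Among members with whole estimates 25 of 54 were called at both. No share over all transcripts stands beside the 85 and the 38, and none over all transcripts with whole estimates beside the 25. Nothing is read from these counts. Within the level limits, transcripts with whole estimates spread less in control, with a median coefficient of variation of 8.14% against 11.1% for fractional estimates. Among the members the medians in control were closer, 8.75% with whole and 9.48% with fractional estimates. Whether spread bears on the number of calls was not tested. Leaving out 1 control library brought the 77 to 42 (replicate I), 43 (II) or 47 (III), and leaving out tefluthrin 60 nM replicate I brought it to 51. The share over all transcripts in those fits is not given here. Between the tefluthrin concentrations 195 members were called (background 19.1%), which the choice of opposite signs largely fixes.

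**Figure D3:**
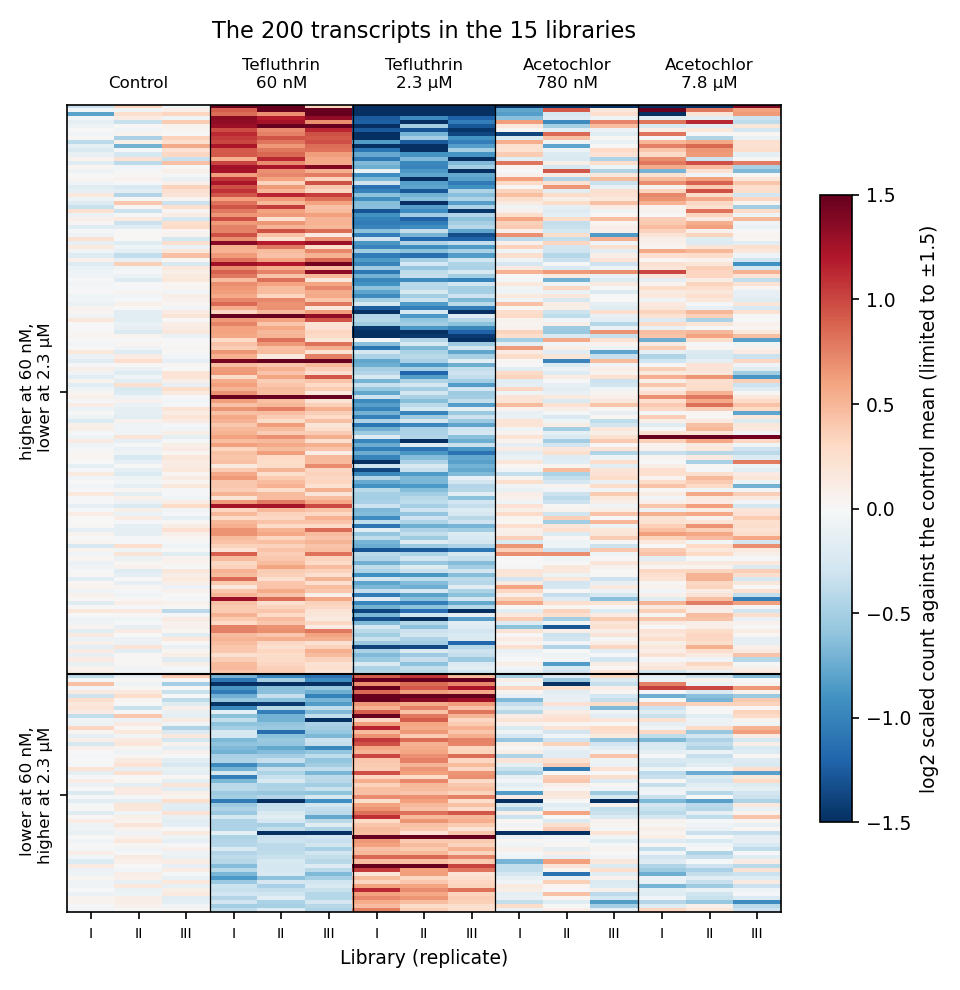
Each row is a member and each column a library, grouped by treatment; colour gives the log2 of scaled count plus 5 against the control mean, limited to 1.5 in either direction. Upper rows hold the 141 transcripts higher at tefluthrin 60 nM and lower rows the 59 lower, each in order of the smaller shift; the tefluthrin blocks are uniform in sign because of the choice, and the acetochlor 7.8 µM columns of replicates I and II are more uniform in sign within each list than the column of replicate III.

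Because the same libraries chose the members, the pattern was looked at in libraries that the choice did not use. The conditions were applied to 2 replicate numbers at a time, the 200 largest were taken, and the sign of both shifts was read in the control and tefluthrin libraries of the left-out number. Of each 200, only 98, 81 and 55 were members described here (replicate I, II and III left out), so the shares below are not shares of the members. With fewer libraries the overlap condition was easier to meet, and 379, 506 and 742 transcripts met all conditions, against 256. With replicate I left out, 123 of 200 (61.5%) had the chosen sign at both concentrations in the left-out libraries, and with replicate II left out 113 (56.5%). With replicate III left out it was 77 (38.5%). The share of all transcripts within the level limits with either given pattern in the same left-out libraries was between 14% and 15.5%. Beside it, the 2 directions kept 70.7% and 46.8% with replicate I left out (background 14.9% and 15.5%), 67.5% and 40.0% with replicate II left out (background 14.3% and 14%), and 38.6% and 38.2% with replicate III left out (background 15% and 15.2%), where the first value of each pair is for transcripts chosen as higher at 60 nM. These values carry no test, since 1 library per group was left out. Among transcripts chosen as lower at 60 nM, the sign at 60 nM alone was kept in 41 of 77, 40 of 80 and 30 of 55. The sign at 2.3 µM was kept in 68, 64 and 43 of them, so the shares of this direction rest mainly on 2.3 µM. Shares of a single sign over all transcripts in the left-out libraries are not given here. In the edgeR fit of all libraries, 50.4% of transcripts within the level limits were below 0 at 60 nM. At 2.3 µM, 49.6% were above 0. That fit uses 3 libraries per group and the left-out check 1, so these shares are of unlike measure. Whether the sign at 60 nM was kept more often than over all transcripts cannot be read from them. With replicate III left out, transcripts chosen as higher at 60 nM kept the sign there in 61 of 145, and at 2.3 µM in 135.

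The 2 concentrations differed in how well the sign carried over. At 2.3 µM, 167, 158 and 178 of 200 had the chosen sign with replicate I, II and III left out. At 60 nM, 148, 146 and 91 did. In the edgeR fit of all libraries, 49.5% of transcripts within the level limits were above 0 at 60 nM and 50.4% below. These shares are of an unlike measure, so whether the 91 of 200 exceeded the share over all transcripts in the left-out libraries cannot be read from them. Transcripts chosen as higher at 60 nM had a median shift there of 0.639 and 0.661 in the left-out libraries of replicates I and II, against 0.587 and 0.702 in the libraries that chose them. In the left-out libraries of replicate III the median was -0.1, against 0.796 in the choice. Transcripts chosen as lower at 60 nM had left-out medians near 0 throughout, -0.097, -0.009 and -0.065, against -0.61, -0.65 and -0.855 in the choice. Their shifts at 2.3 µM were kept, with left-out medians of 0.695, 0.52 and 0.814. Each reading here used 1 left-out control library. In a second check only tefluthrin 60 nM replicate I, II or III was left out, and all control libraries took part in the choice. Of those chosen as lower, 50 of 73, 58 of 82 and 48 of 65 then kept the sign at 60 nM. Their medians there were -0.234, -0.174 and -0.318. Of those chosen as higher, 118 of 127, 111 of 118 and 111 of 135 kept it. No share over all transcripts stands beside these counts.

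**Figure D4:**
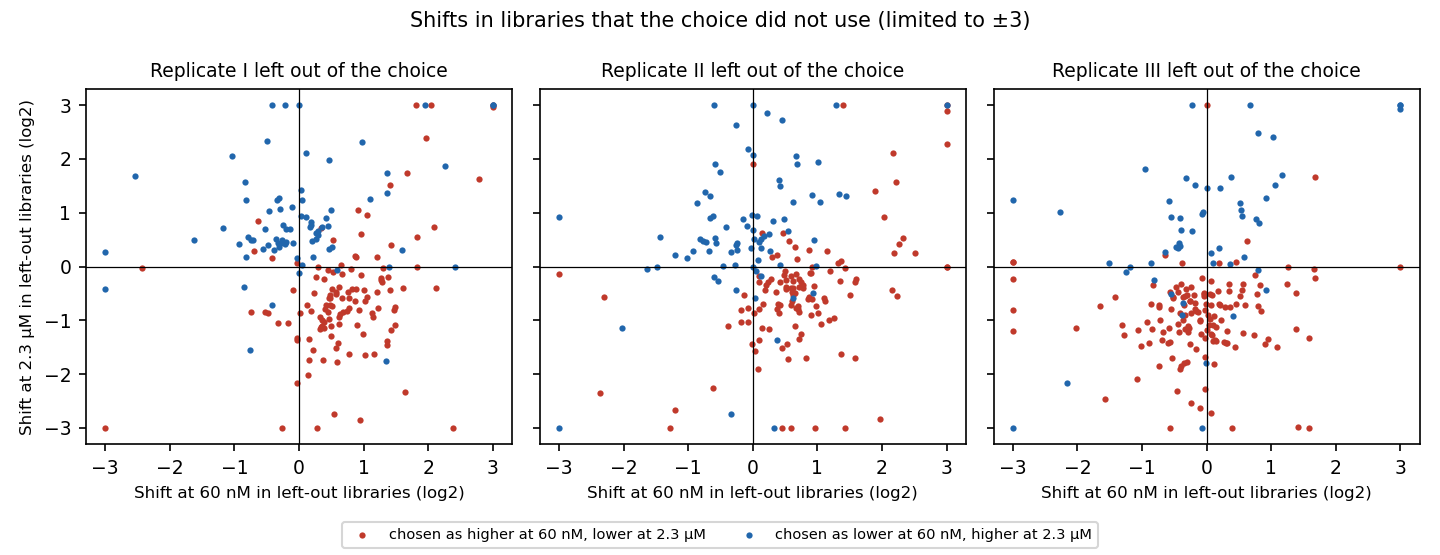
Each point is 1 of the 200 transcripts chosen without the replicate named above the panel; the axes give its shift at tefluthrin 60 nM (horizontal) and 2.3 µM (vertical) in the left-out libraries, log2, limited to 3 in either direction. Red points, chosen as higher at 60 nM and lower at 2.3 µM, mostly lie in the lower right for replicates I and II and are centred near 0 on the horizontal axis for replicate III; blue points, chosen as the reverse, lie mostly above 0 on the vertical axis and are centred near 0 on the horizontal axis in all panels.

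Whole and fractional estimates gave different shares in the same check for replicates I and II, a difference that was not tested. No share over all transcripts with whole or with fractional estimates is given beside these counts. The difference can therefore not be assigned to the chosen transcripts. With replicate I left out, 26 of 29 chosen transcripts with whole estimates (89.7%) kept both signs, against 97 of 171 with fractional ones (56.7%). With replicate II left out it was 30 of 35 (85.7%) against 83 of 165 (50.3%). With replicate III left out the shares were close, 17 of 43 (39.5%) against 60 of 157 (38.2%).

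The acetochlor libraries took no part in the choice, but the control libraries that they are compared with did. Background shares in this paragraph are over all transcripts tested, including those outside the level limits. With acetochlor 780 nM against control, 0 of the 200 members passed edgeR's quasi-likelihood test (background 0.0%). At an unadjusted p-value under 0.05 there were 9 (background 2.53%), and DESeq2 called 1 (background 0.275% by DESeq2) and limma voom 0 (background 0.0% by limma voom). At acetochlor 7.8 µM edgeR called 2 members, both higher (background 0.106%), with 29 at an unadjusted p-value under 0.05 (background 7.12%). Between acetochlor 7.8 µM and 780 nM it called 1, higher at 7.8 µM (background 0.0669%), with 21 at an unadjusted p-value under 0.05 (background 4.65%). DESeq2 called 12 (background 1.22% by DESeq2) and 6 (background 0.628% by DESeq2) in these comparisons. Leaving out acetochlor 7.8 µM replicate III gave 3 in each, where 0.295% and 0.177% of all transcripts were called. The first count was 1 without any 1 of the control, tefluthrin 60 nM or acetochlor 780 nM libraries, without tefluthrin 2.3 µM replicate III, and without acetochlor 7.8 µM replicate I or II. In those fits between 0.0403% and 0.0971% of all transcripts were called, against 0.106% with all libraries.

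ENSDART00000081663.6, the member called in both, has fractional estimates and ranked 111. It was at 778, 931 and 738 scaled counts in control and at 944, 700 and 959 at acetochlor 780 nM. At acetochlor 7.8 µM it was at 2694, 2980 and 2234, above every other library of the study. Against control it rose at 7.8 µM by 1.69 on the log2 scale (SE 0.148, edgeR adjusted p = 0.000422). Against 780 nM the difference was 1.6 on the same scale (SE 0.147, edgeR adjusted p = 0.000741). With tefluthrin it was at 1239, 1319 and 1194 at 60 nM and at 711, 602 and 526 at 2.3 µM, with no overlap between those groups and control.

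ENSDART00000138081.2, the other, has whole estimates and was lower at tefluthrin 60 nM. Its libraries were at 150, 158 and 156 scaled counts in control, at 82.0, 98.3 and 103 at tefluthrin 60 nM and at 459, 301 and 367 at tefluthrin 2.3 µM. At acetochlor 780 nM it was at 194, 186 and 166 and at acetochlor 7.8 µM at 324, 315 and 245. All acetochlor libraries lay above all controls, and those at 7.8 µM above those at 780 nM. It rose by 0.93 on the log2 scale at 7.8 µM against control (SE 0.153, edgeR adjusted p = 0.0472). This call lay close to the threshold and was lost in many fits. The edgeR adjusted p was 0.112 with the replicate number as a block and 0.0652 with no filter on low counts. It was between 0.127 and 0.259 without any 1 control library or acetochlor 7.8 µM replicate I or II. Without a tefluthrin 60 nM or acetochlor 780 nM library, or tefluthrin 2.3 µM replicate III, the edgeR adjusted p was between 0.0674 and 0.0898. It was at or under 0.0325 without tefluthrin 2.3 µM replicate I or II or acetochlor 7.8 µM replicate III, with 0.0175 the lowest of these. Between the acetochlor concentrations it did not pass (edgeR adjusted p = 0.272).

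Few single members passed, and the fold changes of the members as lists were therefore set beside those of all transcripts tested. The comparison between the acetochlor concentrations uses no library of the choice. There, 109 of the 141 (77.3%) were above 0 with a median log2 fold change of 0.143, where 48.9% of all transcripts tested were above 0 with a median of -0.004. Of the 59, 40 (67.8%) were below 0 with a median of -0.122, where 50.8% of all were. Members with whole estimates gave 30 of 36 above 0 (median 0.162) and 12 of 18 below (median -0.115). Leaving out any 1 acetochlor library gave between 93 and 112 of the 141 above 0 and between 35 and 43 of the 59 below. The median of the 141 was 0.085 without acetochlor 780 nM replicate II, 0.08 without acetochlor 7.8 µM replicate II and 0.218 without acetochlor 7.8 µM replicate III. The median of the 59 was -0.053 and -0.079 without the first and the second of these libraries, and -0.058 when libraries were scaled by their totals alone. No median changed sign in these fits. The members of a list varied together, so these counts are not of independent observations, and they carry no test. Libraries of 1 group also split the list. In acetochlor 7.8 µM replicates II and III, 108 and 33 of the 141 lay above their own group mean. Of transcripts within the level limits, 49.9% and 49.1% did. In acetochlor 780 nM replicates I and II it was 95 and 47 of the 141, against 51.2% and 48.1%.

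Against control, the comparisons share their control libraries with the choice and carry no weight as a separate check. At acetochlor 7.8 µM the median log2 fold change was 0.177 for the 141 and -0.15 for the 59, and at acetochlor 780 nM it was 0.035 and -0.031. The 0.177 became 0.114 without acetochlor 7.8 µM replicate II, and the -0.15 became -0.083 when libraries were scaled by their totals alone. At 780 nM the medians were near 0 and moved between -0.021 and 0.071 for the 141 and between -0.069 and -0.0 for the 59 over the alternatives, in each case with the extremes without acetochlor 780 nM replicates I and II. That of the 141 was also under 0 without control replicate II (-0.008). Over all transcripts tested the medians were 0.002 and 0.003. Libraries of acetochlor 7.8 µM and of control did not overlap in 51 members (25.5%, background 15.4%), those of 7.8 µM and 780 nM in 27 (13.5%, background 8.01%), and those of 780 nM and control in 18 (9.0%, background 6.24%). The background shares of overlap are over the 23506 transcripts within the level limits.

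**Figure D5:**
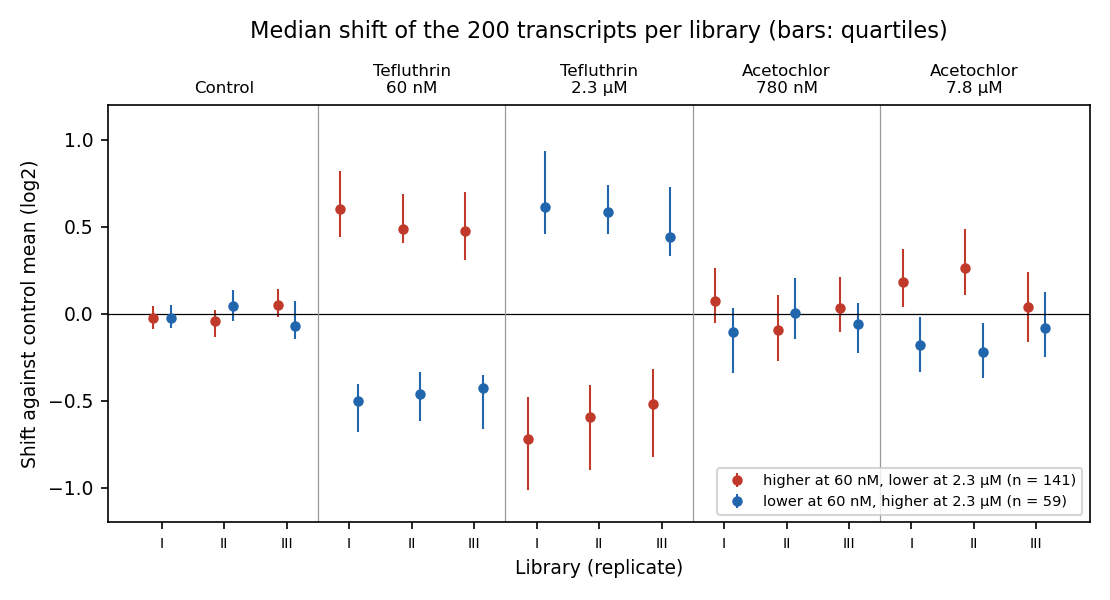
For each library (horizontal axis, by group), points give the median over members of the log2 scaled count plus 5 against the control mean, and bars the quartiles over members, for the 141 transcripts higher at tefluthrin 60 nM (red) and the 59 lower (blue). The tefluthrin values are fixed in sign by the choice; among acetochlor 7.8 µM libraries, replicates I and II are displaced by 0.184 and 0.261 (red) and by -0.182 and -0.22 (blue), and replicate III by 0.036 and -0.081.

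The displacement was unequal between libraries of a group. At acetochlor 7.8 µM, 113 of the 141 transcripts lay above the control mean in replicate I and 117 in replicate II, against 79 in replicate III. At acetochlor 780 nM it was 94, 50 and 82 in replicates I, II and III. Over transcripts within the level limits the median shift was -0.003, -0.008 and -0.008 in the 7.8 µM libraries. In the 780 nM libraries it was -0.009, -0.024 and 0.0. The control mean used here comes from libraries that chose the members, so these counts are a description only. In control replicate III, 95 of the 141 lay above the mean of the control group, and in replicates I and II 54 and 48. The sum of scaled counts over the 141 was between 46864 and 50317 in control, between 73675 and 76306 at tefluthrin 60 nM, between 29118 and 32596 at 2.3 µM, between 46379 and 51101 at acetochlor 780 nM and between 49442 and 58398 at acetochlor 7.8 µM. A few abundant members weigh heavily in these sums.

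Members also varied together between libraries of 1 group. Over the 6 acetochlor libraries, taken as deviations from their own group means, the mean Pearson correlation between pairs of the 141 transcripts was 0.162, and between the 141 and the 59 it was -0.104. Among the 59 it was 0.053, and between pairs of all transcripts within the level limits 0.002. Over all 15 libraries the values were 0.141, -0.114, 0.086 and 0.002. These are descriptions across transcripts that share libraries, depth and scaling, and the members of a list are therefore not independent of each other. The median spread between replicates of the members was a coefficient of variation of 13.8% at acetochlor 7.8 µM and 15.1% at acetochlor 780 nM, against 11.5% and 13.9% over transcripts within the level limits.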

How the data were processed

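RNA-seq of pooled whole zebrafish larvae gave 15 libraries in 5 groups of 3. The authors deposited estimated counts per Ensembl transcript, not scaled for depth. Salmon 1.6.0 and build GRCz11 are named in the submitters' processing notes, without settings; the annotation release is not given in the sources used here. The estimated counts were scaled by median-of-ratios for the choice. For the tests they were rounded, filtered with filterByExpr (35865 transcripts kept), scaled with TMM and fitted with edgeR's quasi-likelihood model (R 4.3.3, edgeR 4.0.16) on group over all 15 libraries, with two-sided tests, Benjamini-Hochberg adjustment over all 35865 and a threshold of 0.05. All 200 members passed the filter. A standard error is the log2 fold change divided by the square root of F. DESeq2 1.42.0 and limma 3.58.1 (voom) were alternatives. The model was tested on simulated data. Figures used Python 3.11.15 and matplotlib 3.10.9. Members and lists were chosen with earlier results of these data known. The rule for transcripts to describe took, in each direction, the 8 with the largest smaller shift, the 6 largest with whole estimates, and members called with acetochlor. Without gene names, few of these are given, and 4 by identifier. The planned gene lists and cell type markers could not be used, since 0 of 64995 identifiers matched a name. Same-numbered libraries did not deviate together (correlations between -0.076 and 0.062), so replicate numbers were not used as pairs.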

Additional observations from a re-analysis of the deposited data

Results flagged for a closer look

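Between tefluthrin 2.3 µM and 60 nM, edgeR's quasi-likelihood test (Benjamini-Hochberg adjusted) called 195 of the 200 members (background 19.1%). The choice of opposite signs largely fixes this difference. The same test between acetochlor 7.8 µM and 780 nM, whose libraries took no part in the choice, called 1 member (background 0.0669%). This was ENSDART00000081663.6, higher at 7.8 µM by 1.6 on the log2 scale (SE 0.147, edgeR adjusted p = 0.000741).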

How the results depend on the processing

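With 3 libraries per group, several counts changed when 1 library was left out. The number of members called in opposite directions at both tefluthrin concentrations (77) was 42 to 82 when 1 library was left out, and between 60 and 93 under the other scalings, filter and tools. These contrasts chose the members, and no share over all transcripts is given beside these counts. The count at acetochlor 7.8 µM (2) was 1 with no filter on low counts, 1 with the replicate block, 12 with DESeq2 and 1 to 3 when 1 library was left out, where 0.0619%, 0.0669%, 1.22% and 0.0403% to 0.295% of all transcripts were called, against 0.106%. The count at acetochlor 780 nM (0) was 1 with DESeq2 (0.275% of all), and that between the acetochlor concentrations (1) was 6 with DESeq2 (0.628% of all) and 1 to 3 when 1 library was left out (0.0242% to 0.177% of all). The cause of these differences was not tested. Of the 200 members, 132 to 176 were chosen again when 1 library was left out of the choice, with the lowest values without control replicate III (132) and without tefluthrin 60 nM replicate III (133). With library totals, 148 were chosen again, and with a highest group mean of at least 100, 160. With the replicate number as a block, 60 members were called in opposite directions. Same-numbered libraries did not deviate together (correlations between -0.076 and 0.062), so this block does not stand for a shared source. Between the acetochlor concentrations, the members above 0 among the 141 (109) ranged from 93 to 112 when 1 library was left out and came to 124 with library totals. The median of the 141 at acetochlor 780 nM against control (0.035) took the other sign without control replicate II (-0.008) and without acetochlor 780 nM replicate I (-0.021).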
